A study of Mus musculus with 10 samples.

Results

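The P2X receptors are cation channels in the cell membrane that open when extracellular ATP binds to them. Each channel is built from several subunits, either copies of a single subunit or a mixture, and a channel of P2X2 and P2X3 together gives a more lasting current than P2X3 alone, which desensitizes quickly. In vagal sensory neurons these channels turn ATP released by airway and other visceral tissue into action potentials, and the response to the selective agonist α,β-methylene ATP is a classic way to tell nodose from jugular C-fibers. The mouse genome holds 7 genes for these subunits, P2rx1 to P2rx7. They were found by symbol in the gene column of the count files, where all 7 were listed among 24421 gene rows, and their transcript levels were followed across 10 pools of hand-picked mouse vagal neurons.

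The nodose ganglion (placode-derived) and the jugular ganglion (neural crest-derived) hold the cell bodies of vagal afferents, and neurons from the caudal and the rostral ends of the fused ganglion were collected separately with a pipette. In the Trpv1 selection, neurons came from Trpv1-tdTomato mice, in which Cre recombinase driven from the Trpv1 gene switches on a CAG-driven tdTomato reporter at Gt(ROSA)26Sor, so that the label marks cells that express Trpv1 or once did. These gave 2 pools each of Trpv1-positive nodose, Trpv1-positive jugular and Trpv1-negative nodose neurons, picked from 2 mice, with 30 cells in each Trpv1-positive and 15 in each Trpv1-negative pool, and which mouse each pool came from was not stated. In the capsaicin selection, neurons of wild-type C57BL/6 mice were picked by their calcium responses, and each ganglion gave 2 pools of 14 to 16 cells. There, nodose neurons had to respond to both 10 μM α,β-methylene ATP and 1 μM capsaicin, whereas jugular neurons had to respond to capsaicin and show no response to the ATP analogue. A functional P2X response was therefore a criterion of the capsaicin selection, and its nodose to jugular comparison is no independent test of the P2X genes. The selections also differed in strain, sequencing facility and depth, which cannot be told apart from the selection itself. The ages of the animals were not given, and since the pools were not stated to come from separate animals, p-values measure only the spread between pools.

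Total counts ran from 148452506 to 167704327 in the 6 pools of the Trpv1 selection and from 17666710 to 30810863 in the 4 capsaicin pools. Levels are given as CPM, counts divided by a size factor set over all 10 pools and scaled by the geometric mean of the pools' totals, and as mean ± SD over the 2 pools of a group. A pool with no count of a gene allowed a level of up to 3 counts, which was 0.0116 to 0.0154 CPM in the deeper Trpv1-tdTomato pools and 0.118 to 0.176 CPM in the pools picked by capsaicin, for counting error only. The ganglion labels held for Prdm12, a marker of the jugular, neural crest-derived neurons, which lay between 22.2 and 147 CPM in the 4 jugular pools and between 0 and 0.190 CPM in the 6 nodose pools. Trpv1 itself stood at 202 and 118 CPM in Trpv1-positive nodose, 17.8 and 25.8 CPM in Trpv1-positive jugular and 0.0348 and 0.0334 CPM in Trpv1-negative nodose pools.

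P2rx2 and P2rx3, the subunits on which the results turn, share enough sequence to ask whether short reads could be counted for the wrong gene. The stretches of 50 bases, the length of a read, in which their coding sequences were most alike are shown here from the GENCODE vM21 transcripts, with the bases that both share in capitals.
P2rx2: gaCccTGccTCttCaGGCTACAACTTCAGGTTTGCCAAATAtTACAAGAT
P2rx3: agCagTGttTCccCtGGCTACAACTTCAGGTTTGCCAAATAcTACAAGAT
The P2rx2 stretch is bases 916 to 965 of the coding sequence and spans the junction of exons 8 and 9 of 11, within chr5:110340929-110341129 on the minus strand of GRCm38. The P2rx3 stretch is bases 814 to 863, spans the junction of exons 8 and 9 of 12, and lies within chr2:85000730-85021757, also on the minus strand. The aligned stretches differed at 10 of 50 bases, against the 2 mismatches that the alignment allowed. Over the 21 pairs of P2X genes the most alike stretch differed at 7 to 16 bases, with a median of 11.

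P2rx2 separated the ganglia in both selections. The gene lies at chr5:110339812-110343212 on the minus strand and encodes P2X2, the subunit that gives P2X channels their slow desensitization. Its level was 356 and 244 CPM in the Trpv1-positive nodose pools (300.1 ± 79.3) and 0.0732 and 0.0525 CPM in the Trpv1-positive jugular pools (17 and 13 counts). The mean was thus 4773-fold higher in nodose. In the capsaicin selection the nodose pools held 366 and 548 CPM (457 ± 129) and the jugular pools 0.235 and 0.0834 CPM, which were 6 and 2 counts. All 4 nodose pools of these groups lay above all 4 jugular pools, a pattern that 5.55% of the 10670 genes tested in the 8 pools showed in either direction. The 4 capsaicin pools were picked by a response, or its absence, to a P2X agonist, so their order is no independent support.

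In the Trpv1 selection the log2 fold change of P2rx2, nodose over jugular, was 12.20 ± 0.705 (SE; edgeR's quasi-likelihood test, Benjamini-Hochberg adjusted p = 0.0187, n = 2 and 2 pools). P2rx2 was called different, meaning an adjusted p of at most 0.1, a change of at least 2-fold and at least 10 CPM in both pools of a group. Of the 7 P2X genes 4 passed the filter on low counts in this comparison and P2rx2 was the only member called, where 0.318% of all 10990 genes tested were called and 0.182% were called higher in nodose. Without any 1 of the 4 pools the call was lost, with log2 fold changes of 11.91 to 12.43 and adjusted p of 0.290 and 0.220 without nodose pool 1 or 2 and of 0.702 and 0.420 without jugular pool 1 or 2, fits in which 1 ganglion is left with a single pool. In the capsaicin selection the log2 fold change was 11.08 ± 1.20 (edgeR's quasi-likelihood test, adjusted p = 0.155), not called. None of the 8181 genes tested there was called (0%), while 1150 had an unadjusted p under 0.05 and DESeq2 called 734 genes (6.04%), P2rx2 among them (adjusted p = 5.70e-05). P2rx2 was called there by edgeR without nodose pool 1 (adjusted p = 0.0905), without jugular pool 1 (0.0240) or without jugular pool 2 (0.0808).

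Over the 8 pools of both selections, with the selection as a term, the P2rx2 difference was 11.72 ± 0.819 on the log2 scale (95% interval 9.91 to 13.54; edgeR's quasi-likelihood test, adjusted p = 0.000201). It was called again, beside 0.825% of 10670 genes called and 0.384% called higher in nodose, and it was called without any 1 of the 8 pools. These are the pools of both comparisons above, 4 of them picked by their response to a P2X agonist, so the call is not further independent support. No other P2X gene was called by this test, while DESeq2, which called 7.4% of the genes it tested, also called P2rx6 (log2 fold change −5.35, adjusted p = 0.0903). Whether the nodose to jugular difference itself differed between the selections was tested with an interaction term, which was 1.14 ± 1.06 for P2rx2 (95% interval −1.26 to 3.53; adjusted p = 0.835 by edgeR). No gene of 11959 was called for the interaction (0%), with 1233 at an unadjusted p under 0.05 and 1091 (7%) called by DESeq2, of which P2rx6 was the only P2X gene. Since P2rx6 had no count in the capsaicin pools, its fitted interaction is not given.

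**Figure D1:**
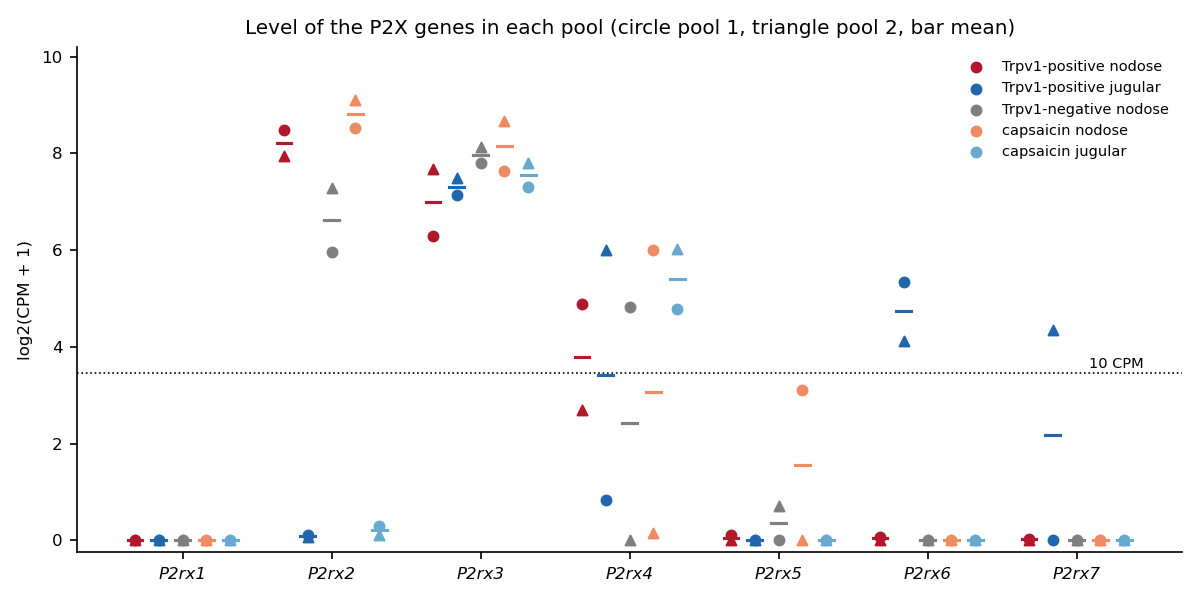
Level of each P2X gene as log2(CPM + 1) in every pool, with circles for pool 1, triangles for pool 2, short bars for the mean of the log values and a dotted line at 10 CPM. P2rx2 is high in the 6 nodose pools and near 0 in the 4 jugular pools, while P2rx3 is above the line in all 10 pools.

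P2rx3 was the member present everywhere. It encodes P2X3, the subunit that makes up the fast, α,β-methylene ATP-sensitive channels of nociceptors, and lies at chr2:84998583-85037462 on the minus strand. The Trpv1-positive nodose pools held 77.9 and 203.7 CPM (140.8 ± 89.0) and the Trpv1-positive jugular pools 139.1 and 179.5 CPM (159.3 ± 28.5). In Trpv1-negative nodose neurons the level was 222.0 and 279.4 CPM, in capsaicin nodose neurons 198.5 and 403.7 CPM, and in capsaicin jugular neurons 157.9 and 222.8 CPM. Ordered by mean, every pair of neighbouring groups overlapped. Between Trpv1-negative nodose (250.7 ± 40.6 CPM) and capsaicin jugular neurons (190.4 ± 45.9 CPM) the gap of the means exceeded either SD and the pools overlapped only marginally, while the means of the other neighbours lay within their spread.

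None of the comparisons called P2rx3. Nodose over jugular, its log2 fold change was −0.18 ± 0.590 in the Trpv1 selection, with a 95% interval of −1.68 to 1.32 (edgeR's quasi-likelihood test, adjusted p = 0.976). The capsaicin selection gave 0.25 ± 0.704, with an interval of −1.54 to 2.03. With all 8 pools the difference was 0.07 ± 0.493, and its interval of −1.02 to 1.16 still held a change of about 2-fold in either direction. Exons of P2rx3 share 51 bases, 1.83% of its exon length, with Ssrp1 on the opposite strand, and the strand setting of the counting was not given.

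**Figure D2:**
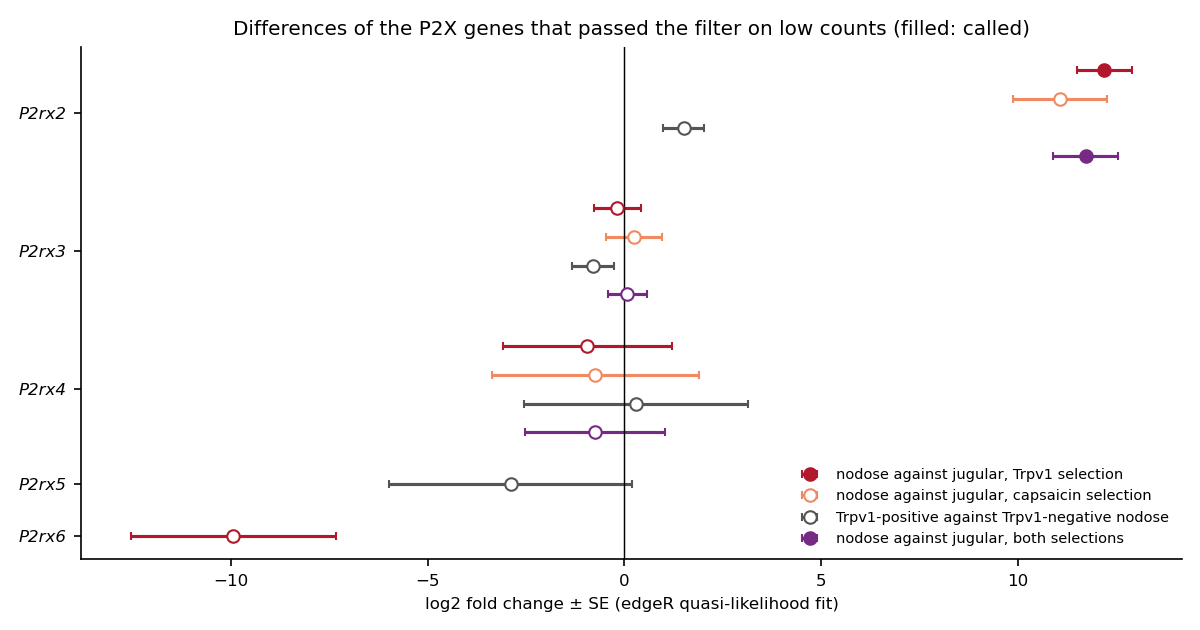
Log2 fold change with an SE derived from the F statistic of the test, for the P2X genes that passed the filter on low counts, by comparison. Filled points are called differences, and positive values are higher in nodose or in Trpv1-positive neurons. The nodose to jugular difference of P2rx2 is near 12 on the log2 scale, whereas those of P2rx3 lie within 1 unit of 0.

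The make-up of the P2X transcripts was compared per length, as CPM per kilobase of annotated exon. P2rx2 and P2rx3 together made up 79.7% to 99.995% of the summed P2X level in the 10 pools. In the Trpv1-positive nodose pools P2rx2 made up 81.2% and 56.2%, and P2rx3 16.4% and 43.3%. Capsaicin nodose pools were similar, with 63.1% and 59.5% for P2rx2. In Trpv1-negative nodose neurons P2rx3 was instead the larger part, at 74.1% and 62.2%, with P2rx2 at 22.2% and 37.6%. Per kilobase, P2rx2 was 4.95 and 1.30 times P2rx3 in the Trpv1-positive nodose pools, at least 1.47 times in the capsaicin nodose pools and 0.300 and 0.605 times in the Trpv1-negative nodose pools. These ratios depend on the annotated exon lengths, 2574 bases for P2rx2 and 2789 for P2rx3. The longest transcripts have 2096 and 1812 bases, and with those lengths every ratio would be lower. The jugular transcripts were mostly P2rx3, which made up 83.3% and 79.7% in Trpv1-positive and 93.6% and 89.7% in capsaicin-selected neurons.

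The summed P2X level of the 4 jugular pools lay under that of the 6 nodose pools. It was 170.4 and 168.6 CPM per kilobase in Trpv1-positive nodose and 59.9 and 80.8 in Trpv1-positive jugular neurons, and 225.4 and 357.8 against 60.5 and 89.1 in the capsaicin selection. The groups did not overlap in either selection, which was also so for 42.1% of the single genes tested in each. Trpv1-negative nodose pools held 107.4 and 161.1 CPM per kilobase. In pooled neurons, fewer cells that hold a transcript and less of it per cell cannot be told apart.

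**Figure D3:**
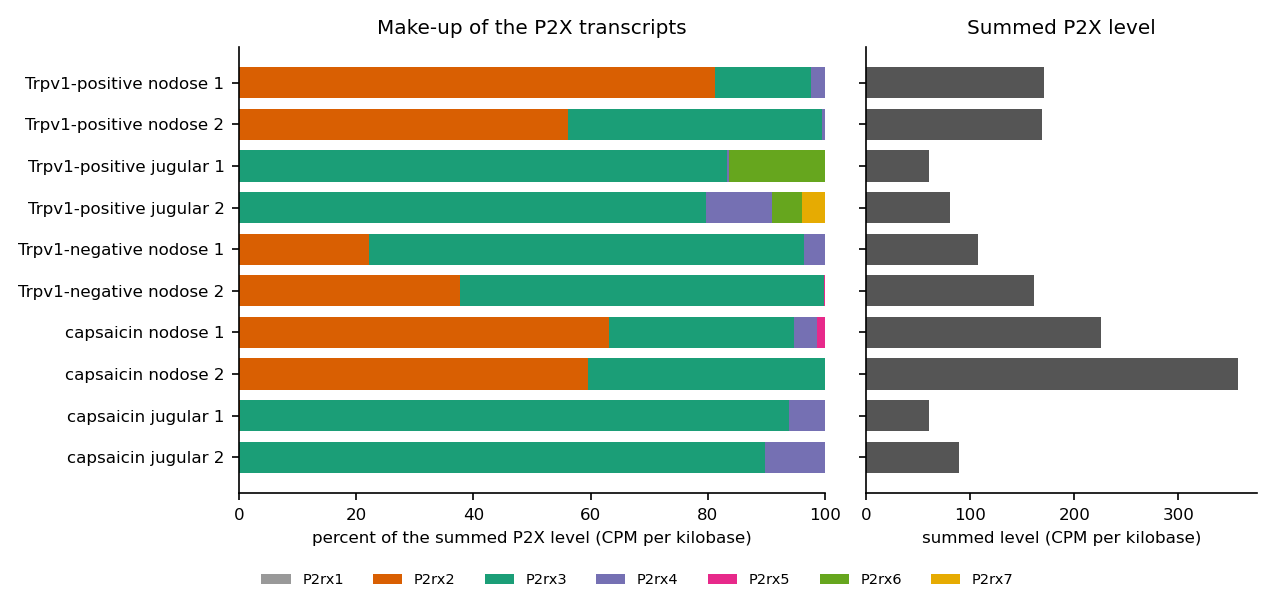
Left, the share of each P2X gene in the summed level of the 7 genes (CPM per kilobase of exon) in each pool; right, that summed level. P2rx2 takes over 50% of the bar in the Trpv1-positive and capsaicin nodose pools, under 40% in the Trpv1-negative nodose pools and under 1% in the jugular pools.

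Within the nodose ganglion, P2rx2 was higher in both Trpv1-positive pools (356 and 244 CPM) than in both Trpv1-negative pools (61.4 and 156.0 CPM, 108.7 ± 66.9), without passing the test. The mean was 2.76-fold higher, with a log2 fold change of 1.51 ± 0.528 (95% interval 0.16 to 2.85; edgeR's quasi-likelihood test, unadjusted p = 0.0344, adjusted p = 0.395), and it ran from 1.003 to 2.268 when 1 pool was left out, highest without Trpv1-negative pool 2. For P2rx3 it was −0.79 ± 0.539 (adjusted p = 0.756), from −1.65 to −0.24 when 1 pool was left out, and both Trpv1-positive pools lay under both Trpv1-negative pools. Pools that did not overlap between these groups were common, at 40.7% of the genes tested. None of the 4 P2X genes tested was called in this comparison, beside 0.0527% of 11386 genes called, nor did DESeq2 call any, where it called 2.09% of genes. It uses the same Trpv1-positive nodose pools as the nodose to jugular comparison of the Trpv1 selection.

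P2rx4 varied more between pools of a group than between groups. P2X4 is a subunit of slowly desensitizing channels found on neurons, immune cells and other cell types, and its gene lies at chr5:122707544-122729738 on the plus strand. The pools held 28.5 and 5.46 CPM in Trpv1-positive nodose and 0.775 and 63.6 CPM in Trpv1-positive jugular neurons. Trpv1-negative nodose pools held 27.4 and 0.00834 CPM (7083 and 2 counts), capsaicin nodose pools 62.7 and 0.117 CPM (1504 and 2 counts) and capsaicin jugular pools 26.4 and 64.2 CPM. In 3 of the 5 groups, 1 pool thus held at least 10 CPM and the other under 1 CPM. That kind of split was common among genes with 10 CPM in at least 1 pool, at 17.4% in Trpv1-positive jugular, 14.6% in Trpv1-negative nodose and 44.3% in capsaicin nodose neurons. It was 22.5% in Trpv1-positive nodose and 27.3% in capsaicin jugular neurons, where P2rx4 did not split in this way. All 10 pools held counts of P2rx4, and 6 of them held at least 10 CPM.

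No comparison called P2rx4. Its log2 fold change, nodose over jugular, was −0.94 ± 2.15 among the Trpv1-positive pools and −0.74 ± 2.64 among those picked by capsaicin, and with all 8 pools the 95% interval ran from −4.68 to 3.18. Since macrophages also express this gene, their markers are given beside it. Of the 10 macrophage markers listed, 8 (Aif1, Csf1r, C1qa, C1qb, C1qc, Ptprc, Tyrobp and Lyz2) were at 0 counts in each of the 10 pools, and the summed list ranged from 0 to 75.7 CPM. Cd68, a lysosomal protein, made up the highest sum, in capsaicin nodose pool 1, which also held the 62.7 CPM of P2rx4. In Trpv1-positive jugular pool 2, with 63.6 CPM of P2rx4, the macrophage list summed to 0.00808 CPM.

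**Figure D4:**
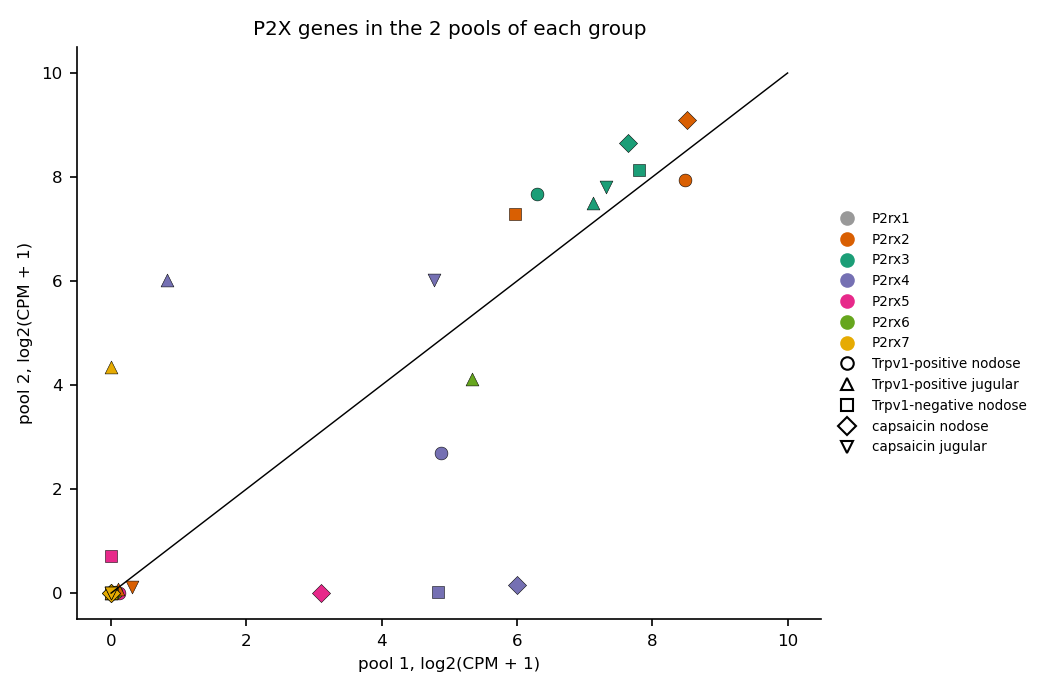
Pool 2 against pool 1 of each group for the P2X genes, both axes as log2(CPM + 1), with colour for the gene and shape for the group and a line of equality. P2rx2 and P2rx3 lie along the line, whereas P2rx4 and P2rx7 have points near an axis, high in 1 pool and near 0 in the other. The points of P2rx5 also lie near an axis but stay under 10 CPM.

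P2rx6 was found at 10 CPM or more in Trpv1-positive jugular neurons alone. P2X6 is a subunit that forms few working channels without a partner such as P2X2 or P2X4, and its gene lies at chr16:17561885-17577800 on the plus strand. The Trpv1-positive jugular pools held 39.4 and 16.5 CPM (9151 and 4074 counts), against 9 and 2 counts in Trpv1-positive nodose and 3 and 1 counts in Trpv1-negative nodose pools. None of the 4 capsaicin pools held a count. The Trpv1-positive jugular mean of 27.9 ± 16.2 CPM was at least 223-fold higher than the 0.125 CPM that 3 counts would give in the capsaicin jugular pool with the higher limit. Of 4826 genes with at least 10 CPM in both Trpv1-positive jugular pools, 139 (2.88%) had no count in both capsaicin jugular pools, and 14 (0.29%) were in addition under 1 CPM in all 6 nodose pools, as P2rx6 was.

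In the Trpv1 selection the P2rx6 difference, nodose over jugular, was −9.94 ± 2.60 on the log2 scale, with a 95% interval of −16.56 to −3.32 (edgeR's quasi-likelihood test, unadjusted p = 0.0115, adjusted p = 0.321). It was therefore not called, although the pools did not overlap, as for 42.1% of the genes tested. DESeq2 called it (adjusted p = 2.61e-07), in a fit that called 3.05% of 15028 genes. Of the exon length of P2rx6, 554 bases (13.9%) overlap Slc7a4, a transporter-like gene on the opposite strand, and reads from there cannot be assigned to a gene without strand. Slc7a4 stood at 6.85 and 26.0 CPM in the Trpv1-positive jugular pools, the reverse order of P2rx6, and at 64.3 and 71.8 CPM in the capsaicin jugular pools where P2rx6 had no count.

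P2rx7 was found in quantity in a single pool. P2X7, best known from macrophages and glia, opens at high ATP, and its gene lies at chr5:122643911-122691432 on the plus strand, 16111 bases from P2rx4. Trpv1-positive jugular pool 2 held 4769 counts (19.3 CPM), while pool 1 of the same group held none. The Trpv1-positive nodose pools held 4 and 1 counts and the other 6 pools none. The macrophage list summed to 0.00861 and 0.00808 CPM in the 2 Trpv1-positive jugular pools, and the list for satellite glia and Schwann cells to 907.7 and 955.0 CPM. P2rx4 was also the higher of the pair in that pool, at 63.6 against 0.775 CPM. With counts in so few pools, P2rx7 did not pass the filter on low counts in any comparison.

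P2rx5 and P2rx1 were the members least seen. P2rx5, for a subunit that joins P2X1, P2X2 or P2X4 in mixed channels, lies at chr11:73160421-73172685 and had counts in 3 nodose pools, with 16 counts in Trpv1-positive pool 1, 154 in Trpv1-negative pool 2 and 182 (7.59 CPM) in capsaicin pool 1. No jugular pool held a count, and the gene stayed under 10 CPM in every pool. In the main edgeR fits it passed the filter on low counts between the nodose groups only, with a log2 fold change of −2.90 ± 3.10 (edgeR's quasi-likelihood test, adjusted p = 0.898). DESeq2, run without that filter, fitted it in all 5 comparisons with an adjusted p of 0.0701 in the capsaicin selection and 4.25e-09 over the 8 pools, but the gene could not be called at under 10 CPM. P2rx1, the channel of platelets and smooth muscle, at chr11:72999103-73015200, was without a single count in all 10 pools. A pool without a count still allowed a level of up to 0.0116 to 0.176 CPM, depending on the pool, for counting error only.

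Across the 10 pools, the genes whose log2(CPM + 1) most resembled a P2X gene were ranked by Pearson's r among 7503 genes with at least 10 CPM in both pools of some group. For P2rx2 they included Hoxb5 (r = 0.987) and Nrsn2 (0.983), and both stood at 1.44 CPM or less in the jugular pools, so that r reflects the gap between the ganglia. Hoxb5, a homeobox transcription factor of the hindbrain and vagal level, held 325 and 273 CPM in Trpv1-positive nodose and 233 and 327 CPM in Trpv1-negative nodose pools. For P2rx3 they were Plbd2 (0.928), Ngly1 (0.915) and Iqsec1 (0.909). P2rx4 was closest to Agps (0.928), Cops7b (0.908) and Trim24 (0.900). The genes most like P2rx6 were Fiz1, Ndp and Def6, each with 10.9 to 47.7 CPM in the Trpv1-positive jugular pools and no count in the capsaicin pools, and their r of 0.998 or more rests on those 2 pools. Each pool is 1 library of 14 to 30 neurons, so these likenesses describe the pools and were not tested. Between P2rx2 and P2rx3 themselves r was 0.208.

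ATP is cleared from the outside of cells by ectonucleotidases, released through channels and vesicles, and sensed also by P2Y and, once broken down, adenosine receptors. Of 31 genes in 5 such lists, 10 to 16 passed the filter on low counts in a comparison. None was called in either selection alone, between the nodose groups or for the interaction, and 1 was called in the 8 pools. That gene was Nt5e, an ecto-5'-nucleotidase that turns AMP into adenosine. The Trpv1-positive jugular pools held 6.01 and 43.1 CPM and the capsaicin jugular pools 38.8 and 241 CPM, against 0 to 2 counts in every nodose pool. With a log2 fold change of −11.31 ± 1.83 it was higher in jugular neurons, opposite to P2rx2 (edgeR's quasi-likelihood test, adjusted p = 0.0234). Of the 10 ectonucleotidases listed, 4 were tested and 1 was called, beside 0.825% of all genes tested. Enpp2, at 102 and 0.0585 CPM in the capsaicin nodose pools, did not pass the filter here. The genes tested therefore do not stand for the list. Acpp, an acid phosphatase with the same AMP-hydrolysing activity, named here after its values were seen, held 35.7 and 61.7 CPM in Trpv1-positive and 215 and 291 CPM in capsaicin jugular pools against 0.0167 to 8.52 CPM in the 6 nodose pools. Its difference of −6.62 ± 2.13 on the log2 scale did not pass the test (edgeR, adjusted p = 0.279).

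The remaining lists held no called member. Of the P2Y receptors, G protein-coupled receptors for nucleotides, P2ry1 stood at 69.3 and 81.3 CPM in Trpv1-negative nodose pools and at 0.0360 and 0.760 CPM in Trpv1-positive nodose pools. Trpv1-positive jugular pools held 12.9 and 21.0 CPM of it, and the capsaicin pools no count. Between the nodose groups its log2 fold change of −7.52 ± 1.99 had an unadjusted p of 0.0122 and an adjusted p of 0.366 by edgeR. P2ry12 was present in capsaicin nodose pool 2 alone, at 194.8 CPM, apart from a single count in pool 1. Among the genes for ATP release, the channel gene Panx1 held 35.4 to 70.4 CPM in the Trpv1-positive pools and 46.2 and 55.3 CPM in the capsaicin jugular pools. It had no count in the capsaicin nodose pools. Its interaction of ganglion and selection was not called (edgeR, unadjusted p = 0.00137, adjusted p = 0.440), and for lack of counts in that group its size is not given. Panx2 was highest in Trpv1-positive nodose neurons at 79.3 and 35.0 CPM and was at 0 in the capsaicin nodose pools, with 4 counts in each capsaicin jugular pool. The capsaicin nodose pools held counts of fewer genes, 8462 and 7889, against 9378 and 10010 in the capsaicin jugular pools. In the deeper pools of the Trpv1 selection it was 12153 to 13029 genes.

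Adora1, for the inhibitory adenosine A1 receptor, was present in all 10 pools at 18.6 to 178.7 CPM, with no call. Adora2a, for a stimulatory adenosine receptor, held at least 10 CPM in 2 pools, Trpv1-positive nodose pool 1 (29.2 CPM) and Trpv1-negative nodose pool 2 (26.6 CPM). Of the genes for proteins that associate with P2X subunits, Apbb1, an adaptor protein that binds P2X2, held 80.5 to 264 CPM across the 10 pools. Cask, a synaptic scaffold kinase associated with P2X3, held 5.88 to 49.3 CPM in the 6 pools of Trpv1-tdTomato mice and 195 to 1590 CPM in the 4 capsaicin pools. The level between selections has no test here, since it cannot be told apart from strain, facility and depth.

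**Figure D5:**
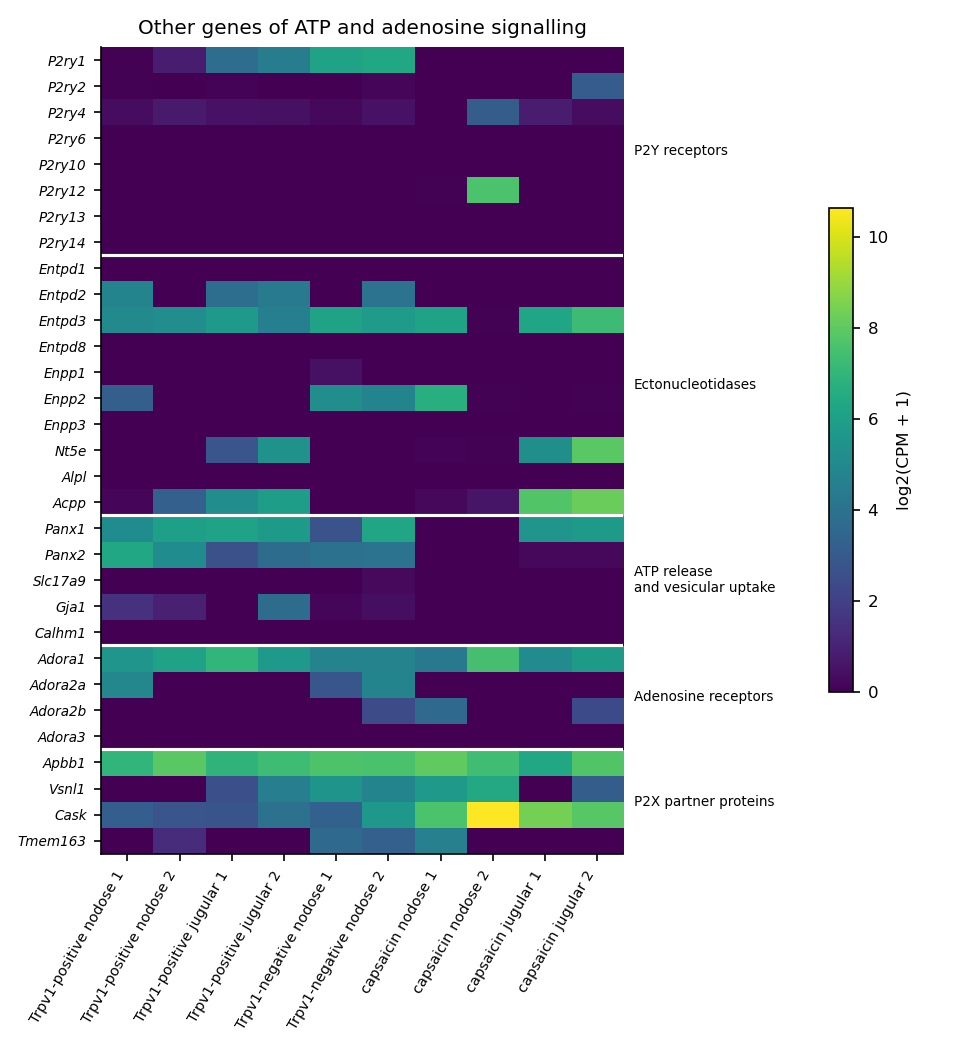
Levels as log2(CPM + 1) of 31 other genes of ATP and adenosine signalling, in 5 lists, in each of the 10 pools. Nt5e and Acpp are brighter in the 4 jugular pools, Adora1 and Apbb1 are present in all 10 pools, and Panx1 has no count in the capsaicin nodose pools.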

How the data were processed

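Count files, 1 for each of 10 pools, were used as the authors deposited them. The submitters' processing notes name CASAVA 1.8.2, TopHat2 2.0.9, Bowtie2 2.1.0.0 and HTSeq; cDNA was made from whole cells with 15 PCR cycles, and reads were paired ends of 50 bases. The deposited values are whole-number counts per gene symbol, without normalization or molecular identifiers, so the limits set by 3 counts cover counting error only. The SEs and intervals of fold changes, derived from the F statistic of the edgeR test, include the spread between pools. They are approximate for genes with few or no counts in a group. The strand setting and annotation release of the counting are not given in the sources used here. In 27 rows the symbol had been turned into a date; no P2X gene was affected.

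Counts were tested with edgeR 4.0.16 (TMM, filterByExpr, quasi-likelihood, Benjamini-Hochberg over all genes tested) in R 4.3.3, with DESeq2 1.42.0 as an alternative, and the fits were checked on simulated counts. Levels used DESeq2 size factors. With 2 pools a group, the smallest p that exact permutation allows is 0.333, so none was run. Exon lengths, positions and sequences came from GENCODE vM21 on GRCm38. The P2X genes and the lists of other genes were chosen with earlier results of these data known. From each list, called genes were named, otherwise the 2 with the highest mean. No pair of pool files was identical. Alternatives were another test, scaling, filter and fit, a replicate block, Rn45s left out, other lengths and each pool left out. Some genes of the marker lists and of the likeness ranking are not reported here.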

Additional observations from a re-analysis of the deposited data

How the results depend on the processing

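P2rx2 was higher in nodose than in jugular pools under all alternatives run for the nodose to jugular comparisons, with log2 fold changes of 11.91 to 12.43 (Trpv1 selection), 10.57 to 11.93 (capsaicin selection) and 11.48 to 12.18 (8 pools) when 1 pool was left out. The number of all genes called moved far more. With DESeq2 it was 459, 734, 320, 1154 and 1091 for the Trpv1 selection, the capsaicin selection, the nodose groups, the 8 pools and the interaction, and without the filter on low counts it was 59, 122, 10, 222 and 95. In 1 fit over all 10 pools it was 110 for the capsaicin selection, 213 for the 8 pools and 7 for the interaction. Leaving out 1 pool gave 0 to 0, 0 to 29, 0 to 0, 36 to 82 and 0 to 195. Of the P2X genes, DESeq2 called 2, 1, 0, 2 and 1; the capsaicin selection had 1 call, P2rx2, also without the filter, with the block and in the fit over 10 pools, 0 to 1 when a pool was left out, and the Trpv1 selection 0 to 0 when a pool was left out, where the lone pool was assumed to vary like the other ganglion's.

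Pools with the same number did not deviate together (r of 0.00221, −0.0137 and −0.0126). With 2 pools a group, r cannot decide whether the numbers pair pools of a mouse, which was not stated. With the number as a replicate block, 13, 20, 1 and 41 genes were called in the first 4 comparisons, P2rx2 was called in the capsaicin selection (adjusted p = 0.0631 by edgeR), and the P2rx4 difference turned to 0.82 in the Trpv1 selection and 4.98 for the interaction. With plain total counts the median of all genes shifted by −0.15 to −0.36 on the log2 scale in the first 4 comparisons; P2rx3 turned to −0.16 (capsaicin) and −0.24 (8 pools) and P2rx4 to −0.058 (nodose groups). When 1 pool was left out, differences that were not called changed sign: P2rx3 ran from −1.06 to 0.36, −0.13 to 0.59, −0.18 to 0.33 and −1.21 to 0.12 (Trpv1, capsaicin, 8 pools, interaction), P2rx4 from −2.56 to 4.43, −9.04 to 0.27, −1.32 to 10.94, −2.32 to 0.66 and −1.78 to 8.31 (all 5 comparisons), P2rx5 from −9.18 to 6.16 (nodose groups) and P2rx2 from −0.11 to 1.65 (interaction). By Spearman's rho 3 of the 12 likest genes kept their place. With other lengths or none, P2rx2 and P2rx3 together still held over 50% of the summed P2X level in all 10 pools. Among single share values 12 moved and 30 stayed the same. A capsaicin pool without a count still allowed up to 0.176 CPM, and 2 pools a group limit the rest.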
